A study of Mus musculus with 2 samples.

Results

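The cytoplasmic ribosomal proteins are the protein components of the 40S and 60S ribosomal subunits, and the expression of the genes that encode them was measured in cells of the mouse spleen. Members were taken by gene symbol, as Rps or Rpl followed by a digit, together with Rplp0, Rplp1, Rplp2 and Rpsa. Of 101 matching symbols, 5 pseudogenes with "-ps" in the name and 10 genes of the Rps6k kinase family were left out, which gave 86 of the 32285 genes in the files. By their symbols 31 of them encode proteins of the small subunit and 46 proteins of the large subunit. Another 8 are paralogs (Rpl22l1, Rps27l, Rpl39l, Rpl3l, Rpl10l, Rpl36al, Rpl7l1 and Rps27rt), and 1, Rps19bp1, encodes a protein that binds RPS19 and is no part of the ribosome. Fau also encodes a ribosomal protein, fused to a ubiquitin-like protein, but its symbol lies outside the rule and it is given with the other translation genes.

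RNA of viably frozen mouse splenocytes was sequenced from its 3′ end in droplets, cell by cell, after the cells had been sorted as CD45.2+CD11b+ with the DNA dye DAPI. CD11b is an integrin subunit on the surface of neutrophils, monocytes, and some NK and B cells. The treatment label of 1 library is Low B12 and that of the other is High B12, and the title of the series speaks of Tet2-deficient blood formation. The labels give no genotype, no dose, no age and no number of mice, so whether a library pools animals is not known. With 1 library per condition there is no test between conditions, no p-value is given, and B12 and the library cannot be told apart. Every interval below is a 95% interval for counting error alone.

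Each ribosome holds its proteins in fixed proportion, and the mRNAs that encode them are among the most abundant of a growing cell. Most of these mRNAs start with a C followed by a run of pyrimidines, the 5′ terminal oligopyrimidine (5′TOP) motif, through which mTOR signalling and LARP1 set their translation and stability. Neutrophils shut down ribosome production as they mature, while lymphocytes enlarge theirs when they are activated. Loss of 1 copy of Rps14 or Rps19 is known for anaemia in 5q- syndrome and in Diamond-Blackfan anaemia.

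The genes whose part in the ribosomal protein pool differed most between cell classes were Rps9, Rpl12, Rps27a, Rpl36al, Rpl10 and Rpl14. Their start regions are shown because the pool results below turn on these genes, and because the pyrimidine tract at the start is the feature the family is known for. Each line holds 25 bases before and 20 bases from the transcript start listed by RefSeq in GRCm38.p6. Capitals mark the longest run of at least 5 bases that opens with C and goes on with C or T within 20 bases of that start. Rps27a was not matched in the RefSeq promoter table.
Rps9, chr7:3704016-3704060, plus strand: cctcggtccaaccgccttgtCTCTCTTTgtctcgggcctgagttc
Rpl12, chr2:32961687-32961731, plus strand: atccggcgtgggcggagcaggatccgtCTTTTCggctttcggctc
Rpl36al, chr12:69184048-69184092, minus strand: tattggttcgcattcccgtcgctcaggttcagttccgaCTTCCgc
Rpl10, chrX:74270791-74270835, plus strand: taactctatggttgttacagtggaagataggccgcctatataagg
Rpl14, chr9:120571492-120571536, plus strand: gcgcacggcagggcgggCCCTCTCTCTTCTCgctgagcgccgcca

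Rps9, Rpl12, Rpl14 and Rpl36al have such a run near the listed start, of 8, 6, 14 and 5 bases, and Rpl10 has none in this window. Over the 66 of 86 members matched in the table, 14 (21.2%) open with C and at least 4 C or T exactly at the listed start, against 2.67% of 17491 protein-coding genes. Within 20 bases of the listed start 51 of 66 members (77.3%) hold a run of this kind, against 50.6% of protein-coding genes. The sequence CCGGAAG or its reverse complement CTTCCGG, the core bound by ETS family factors, lies in the 300 bases around the start of 26 members (39.4%) and of 12.9% of protein-coding genes. These matches describe the sequences, and listed starts can differ from those used in these cells. Members are short genes: their spans in the genome run from 374 to 31449 bases, with a median of 3328.5 bases against 12268 bases over the genes of the files.

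Ribosomal protein genes have many processed copies in the mouse genome, which bears on how reads were assigned. Of the 86 members, 38 shared none of the 60-base windows in the last 200 bases of their transcript with transcripts of another gene in GENCODE M21. In 32 members at least 50% of the windows were shared, and in 4, Rpl10, Rpl29, Rpl36a and Rps27, all were. Reads of those genes may be lost or wrongly assigned, so their levels are uncertain. The search was not limited to genes of the files, and the size of this uncertainty was not measured. Rpl12 and Rpl14 shared no window, Rps9 shared 6.38%, Rpl36al 44.7% and Rps27a 76.6%. The spans of 23 members overlap another gene of the files, Rpl12 that of Lrsam1 and Rps27a that of Clhc1, both on the other strand.

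Cells were barcodes with at least 500 UMIs (unique molecular identifiers, the counted RNA molecules), 200 genes and at most 10% mitochondrial UMIs, 6510 with low B12 and 6748 with high B12. The libraries held 48884220 and 46994991 UMIs, and 4 cell barcodes occurred in both. Classes were taken by first match: a small class by Elane, Mpo and Prtn3, neutrophils by S100a8 and S100a9 at 5% of UMIs or more, B cells by Cd79a and Cd79b, NK cells by Ncr1 and Klrb1c, and monocytes by Csf1r. Markers that the rule did not use were at 50 counts per 1000000 (CPM) or more for 9 of 9 neutrophil, 8 of 8 B cell and 8 of 8 NK cell markers in both libraries, and for 8 and 7 of 8 monocyte markers in the low-B12 and high-B12 library. Cells taken by Elane, Mpo and Prtn3 held more RNA of neutrophil than of progenitor markers: the 9 neutrophil markers summed to 43589 and 50331 CPM in them, the 7 progenitor markers to 1727 and 1306 CPM, and the basophil, mast cell and eosinophil markers to 9.77 and 829.5 CPM. They are called Elane/Mpo/Prtn3 cells below. The classes are named by rule and were not sorted apart, and cells that match none are called unclassified.

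Ribosomal protein genes took the smallest part of the RNA in neutrophils and the largest in B cells, in both libraries. Neutrophils gave them 5.61% of all UMIs with low B12 (930 cells, exact binomial interval 5.59 to 5.62%) and 4.29% with high B12 (2651 cells, 4.28 to 4.30%). B cells stood at 22.5% (1852 cells) and 25.1% (673 cells). The gap between these classes was thus far wider than any difference between the libraries within a class.

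NK cells stood at 18.0% with low B12 (946 cells) and 19.98% with high B12 (844 cells). Monocytes stood at 18.4% (1429 cells) and 19.5% (952 cells). The Elane/Mpo/Prtn3 cells were at 15.3% and 15.6%, with 19 and 35 cells, too few for a comparison of members. The order of B cells first, Elane/Mpo/Prtn3 cells next to last and neutrophils last held in both libraries and under each of 7 other ways of choosing or weighting cells. NK cells and monocytes changed places with the library: monocytes were above NK cells in the low-B12 library and below them in the high-B12 library. That order was turned round in the high-B12 library when every cell was weighted the same or thinned to 500 UMIs, and in the low-B12 library with doubled marker minimums.

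**Figure D1:**
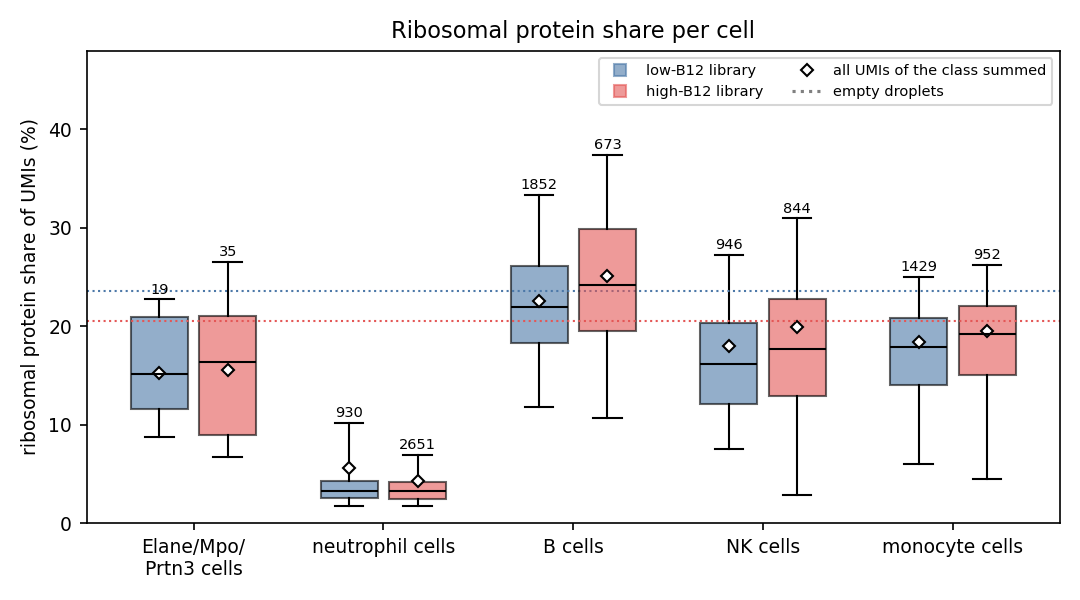
Share of each cell's UMIs that came from ribosomal protein genes (percent), by class and library. Boxes span the quartiles with the median as a line, whiskers run from the 5th to the 95th percentile of cells, numbers are cells, diamonds give the share with all UMIs of the class summed, and dotted lines the share in empty droplets; neutrophil medians of 3.31% and 3.24% lie far below those of the other classes.

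Over single cells the median share in neutrophils was 3.31% with low B12 and 3.24% with high B12, close together, while the summed shares differed by 1.32 points. B cell medians were 21.9% and 24.2%, NK cell medians 16.2% and 17.7%, and monocyte medians 17.9% and 19.3%. A neutrophil had a UMI for a median of 46 members with low B12 and 49 with high B12, where B cells had 80 in both. Empty droplets, barcodes of 10 to 100 UMIs, gave ribosomal protein genes 23.6% and 20.5% of their UMIs. The neutrophil share was thus far below that of the free RNA around the cells in both libraries. Mitochondrial shares, low-B12 library first, were 0.921% and 0.682% in neutrophils and 4.04% and 3.92% in B cells. In NK cells they were 1.91% and 2.05%, and in monocytes 2.05% and 2.11%.

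The share also varied with the depth of the cell. In monocytes of the low-B12 library it was 6.94% in cells of 500 to 2000 UMIs, 12.3% in those of 2000 to 5000, 18.3% in those of 5000 to 10000 and 19.6% above that. In the high-B12 library the same bins gave 4.75%, 10.3%, 19.6% and 20.5%. Monocytes of the high-B12 library were thus above those of the low-B12 library only in the 2 deeper bins, and below them in the 2 shallower ones, of 37 and 252 against 33 and 129 cells.
In NK cells the bin of 2000 to 5000 UMIs held 15.4% and 16.6%, that of 5000 to 10000 UMIs 20.7% and 22.5%, and the deepest 19.9% and 23.9%, low-B12 library first. In B cells the same bins held 20.5% and 21.3%, 23.3% and 26.1%, and 22.3% and 25.4%. The higher share in the high-B12 library was thus seen in each of these 3 bins of NK and B cells. In the shallowest bin NK cells stood at 6.25% and 6.17% and B cells, with 15 and 10 cells, at 21.01% and 15.4%. Neutrophils of both libraries lay near each other below 5000 UMIs, at 3.38% and 3.42% in the bin of 2000 to 5000 UMIs. Those of the low-B12 library were higher from 5000 UMIs on, at 4.03% (129 cells) against 3.38% (371 cells) up to 10000 UMIs and at 7.30% (175 cells) against 5.15% (506 cells) above.

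**Figure D2:**
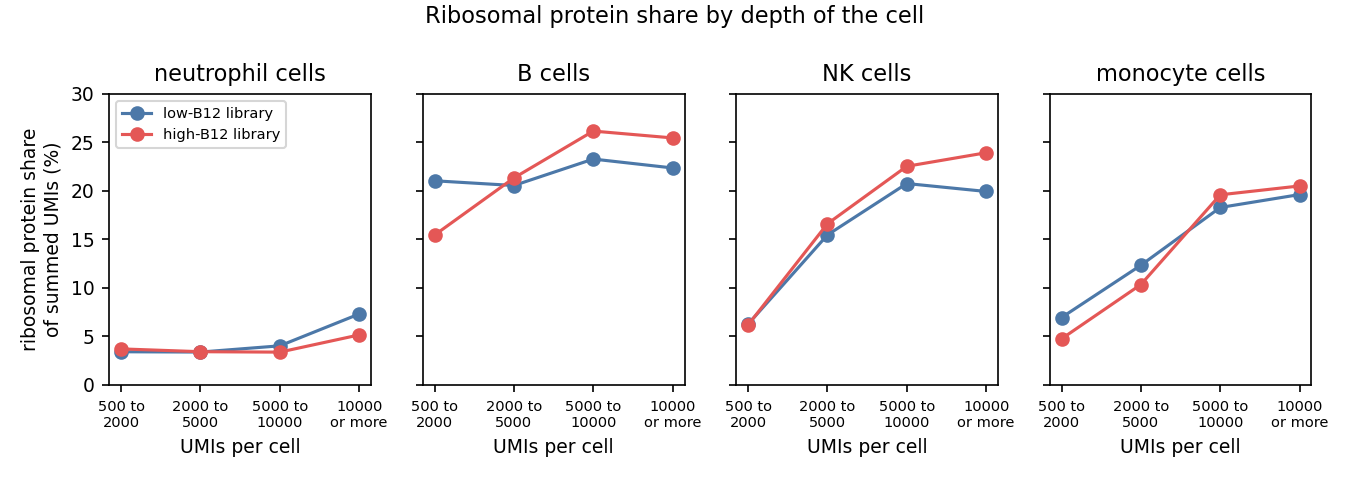
Ribosomal protein share of summed UMIs (percent) against the number of UMIs per cell, in 4 bins, for each class and library. The neutrophil curves part from 5000 UMIs on, at 4.03% and 3.38% and then at 7.30% and 5.15%, while B and NK cells of the high-B12 library lie above those of the low-B12 library from 2000 UMIs on.

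In neutrophils ribosomal protein RNA was lower in the high-B12 library: the summed share was 1.31-fold lower, a difference of −1.32 percentage points (−1.34 to −1.30). Of 84 measured members (at least 50 UMIs in both libraries together), 67 were lower by 20% or more and 1, Rpl3l, was higher by 25% or more, which is the same fold in both directions and is called the fold mark below. Over all 9737 genes measured in neutrophils, 35.8% were lower and 4.93% higher past that mark. The median log2 ratio of CPM, with the high-B12 library over the other, was −0.43 for the members and −0.21 for all measured genes, so the members lay 0.22 (log2) below the median gene. The members of both subunits shared this, 25 of 31 for the small and 40 of 46 for the large subunit. When genes were scaled by the median ratio, 23 members were lower past that mark, beside 18.8% of all genes.

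This lower level in neutrophils moved with the choice of cells, and cells with a high ribosomal protein share also carried RNA of other classes. Cells in which ribosomal protein genes took 5% of UMIs or more were 154 of 930 (16.6%) in the low-B12 library and 330 of 2651 (12.4%) in the high-B12 library. They held 64.6% and 42.5% of all ribosomal protein UMIs of the class. Cd74, the MHC class II invariant chain of B cells and other antigen-presenting cells, stood at 2014 and 1985 CPM in them, against 48.6 to 61.1 CPM in neutrophils with a lower share. Those from 5 to 10%, 105 and 257 cells, had Cd74 at 664 and 633 CPM. Camp, Ngp and Ltf, genes of secondary granules, summed to 67628 and 64831 CPM in these, and to 44141 and 42932 CPM under 3%. From 10% on, in 49 and 73 cells, Cd74 stood at 4025 and 4828 CPM and these granule genes at 34001.5 and 24296 CPM. Median depth at 5% or more was 10646.5 and 3788 UMIs, and the part of maturity or depth was not tested. Over the whole class the summed level of the 8 B cell markers was 482 CPM with low B12 and 184 CPM with high B12, with 3 and 1 of 8 at 50 CPM or more and none at 0. The 8 monocyte markers summed to 735 and 566 CPM with none at 0, and the 8 NK cell markers to 269 and 301 CPM, also with none at 0.

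Without cells that held any UMI of the class-defining B cell, NK cell or monocyte genes, an alternative chosen after seeing the data, 631 and 2009 neutrophils were left. Their ribosomal protein shares were 3.56% and 3.44%, a difference of −0.121 points, and 0 members were lower and 2, Rpl3l and Rps19bp1, higher past the fold mark, beside 24.7% and 7.50% of all genes measured. Without barcodes called as doublets the difference was −0.489 points with 18 of 84 members lower, and with every cell weighted the same it was −0.342 points with 13 lower, beside 27.9% of all genes in each. In these 3 sets the share of members that were lower was thus below the share of all genes, where in the whole class it was above. The difference between the summed neutrophil classes was thus smaller in each of these sets, also with equal weights, where 0 cells were left out. The parts of depth and of RNA from other classes in this change were not tested. The low level of neutrophils was seen in each of these sets.

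Among single genes in neutrophils, Rpl10a, which forms the mobile L1 stalk of the large subunit, stood at 276 CPM with low B12 and 160 CPM with high B12. That is 1.73-fold lower, with a ratio of 0.578 (0.543 to 0.616), the lowest of the members at 100 CPM or more. Rpl12, at the base of the ribosomal stalk, went from 173 to 107 CPM (1.62-fold lower) and Rpl3, close to the peptidyl transferase centre, from 301 to 192 CPM (1.57-fold lower). These genes were chosen for their low ratios. Without cells holding markers of other classes the log2 ratios of Rpl10a, Rpl12 and Rpl3 were −0.11, −0.11 and −0.05, beside a median of −0.07 over the members.
Rplp1, an acidic protein of the stalk that recruits translation factors, stood at 687 and 445 CPM (1.55-fold lower). Its partner Rplp2 stood at 669 and 493 CPM (1.36-fold lower) and Rplp0, which anchors both, at 584 and 448 CPM (1.30-fold lower). Without cells holding markers of other classes the log2 ratio of Rplp0 was 0.08, the other way.

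Rps19 stood at 654 and 425 CPM in neutrophils (1.54-fold lower) and Rps14 at 708 and 558 CPM (1.27-fold lower). Rpl5 and Rpl11, which with 5S rRNA bind MDM2 when ribosome assembly fails, stood at 184 and 120 CPM (1.53-fold lower) and at 631 and 502 CPM (1.26-fold lower). Rps6, the target of S6 kinases, was at 316 and 233 CPM (1.36-fold lower). Rpsa, also known as the laminin receptor, was at 615 and 414 CPM and Rps4x, on the X chromosome, at 565 and 375 CPM, 1.49-fold and 1.51-fold lower. All of these passed the fold mark downwards in the summed class.
The highest ratios there among members at 100 CPM or more, still below 1, were those of Rpl37, Rps9, Rps27a, Rps27 and Rps3. Rps9 stood at 2024 and 1864 CPM (1.09-fold lower), Rps27a at 1766 and 1620 CPM (1.09-fold lower) and Rpl37 at 1304 and 1258 CPM (1.04-fold lower). Rps27, at 1895 and 1627 CPM, and Rps3, at 641 and 532 CPM, were 1.16-fold and 1.21-fold lower, and Rpl41, the smallest ribosomal protein, at 1434 and 1183 CPM, was 1.21-fold lower. Without cells holding markers of other classes the log2 ratios of Rpl37, Rps27a and Rps3 were above 0, at 0.10, 0.04 and 0.02.

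In B cells, NK cells and monocytes ribosomal protein RNA was higher in the high-B12 library, by a small amount spread over nearly all members. The summed share was 1.12-fold higher in B cells, 2.61 percentage points (2.57 to 2.66), 1.11-fold higher in NK cells, 2.004 points (1.95 to 2.06), and 1.06-fold higher in monocytes, 1.16 points (1.12 to 1.19). These differences kept their direction under each of the 7 other ways of choosing or weighting cells, in ranges of 2.15 to 3.29 points, 1.35 to 2.23 points and 0.845 to 1.33 points. Leaving out the cells with markers of another class gave 2.52, 2.18 and 1.11 points.

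Log2 ratios above 0 were seen for 79 of 84 measured members in B cells, 79 of 83 in NK cells and 76 of 84 in monocytes. Past the fold mark there was 1 higher and 1 lower member in B cells, where 8.12% and 24.4% of 10878 measured genes were higher and lower. In NK cells 1 member was higher and 0 were lower, beside 8.25% and 24.5% of 9462 genes, and in monocytes 0 were higher and 1 was lower, beside 8.04% and 19.6% of 10489 genes. The share of members past that mark was thus below the share of all genes in each of these classes and directions. This turned for higher members at a smaller fold in the lymphoid classes: at 1.1-fold 52 of 84 members were higher in B cells and 50 of 83 in NK cells, beside 20.3% and 22.4% of all genes, but 14 of 84 in monocytes, beside 21.7%. Scaled by the median ratio, 23 of 84 members were higher past the fold mark in B cells, beside 14.0% of all genes. The median log2 ratio of the members was 0.16 in B cells, 0.15 in NK cells and 0.08 in monocytes, where all measured genes had medians of −0.11, −0.11 and −0.08. Scaled to the median gene, the members' medians were 0.28, 0.26 and 0.16.

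Short genes as a group lay above long ones in these comparisons. The fifth (20%) of measured genes with the shortest span had median log2 ratios of 0.05 in B cells, 0.10 in NK cells and 0.07 in monocytes, and the fifth with the longest span −0.24, −0.29 and −0.24. In neutrophils these medians were −0.12 and −0.29. The members have short spans, and their part in this relation to span was not tested. Beside the shortest genes the members' medians were higher in B and NK cells and near in monocytes, and lower in neutrophils.

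**Figure D3:**
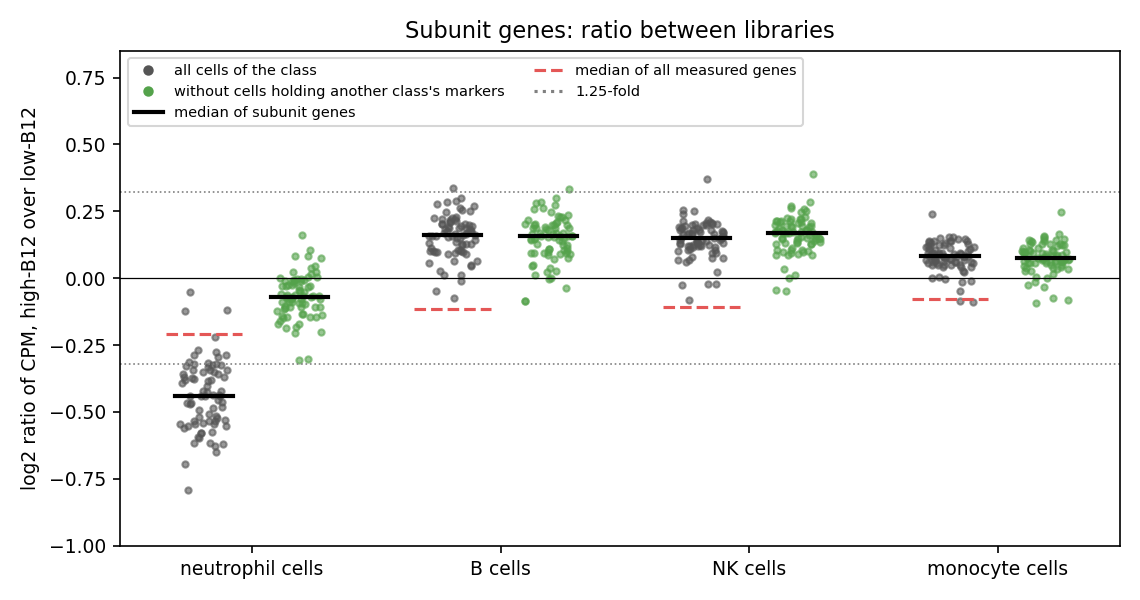
Log2 ratio of CPM between the libraries (high over low B12) for each small- and large-subunit gene (points) in all cells of a class (grey) and without cells holding another class's markers (green), with the median of subunit genes (black), the median of all measured genes (red dashes, all cells) and the fold marks of 25% higher and 20% lower (dotted). All grey neutrophil points lie below 0, the green ones scatter around a median close to 0, and in the other classes both medians lie above 0.

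The single genes of these classes varied little around their medians. In B cells Rps19 had the highest ratio, 3507 CPM with low B12 and 4432 CPM with high B12, 1.26-fold higher (1.24 to 1.28). Rplp0, at 2373 and 2921 CPM, was 1.23-fold higher, and Rps3, a small-subunit protein that also acts in DNA repair, at 2332 and 2847 CPM, 1.22-fold higher. At the other end Rpl23a stood at 685 and 651 CPM, a ratio of 0.951 (0.913 to 0.990), and Rpl13a at 1871 and 1808 CPM, a ratio of 0.966 (0.943 to 0.990), both of which were above 1 when genes were scaled by the median ratio. Rps9 hardly differed, at 3390 and 3419 CPM.

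In NK cells Rpl21, of the large subunit, stood at 1506 and 1949 CPM, 1.29-fold higher (1.253 to 1.336), the only member past the fold mark in this class. Rpl22l1, a paralog, followed at 659 and 803 CPM (1.22-fold), then Rps2 at 1496 and 1785 CPM (1.19-fold), Rpsa at 2292 and 2727 CPM (1.19-fold) and Rpl13 at 3489 and 4116 CPM (1.18-fold). Rps25 was at 1028 and 971 CPM, a ratio of 0.945 (0.906 to 0.985), the lowest of the members at 100 CPM or more, which was above 1 when genes were scaled by the median ratio.
In monocytes Rpl21 stood at 1477 and 1746 CPM, 1.18-fold higher (1.16 to 1.21), among the highest ratios there too. Rpl13a was at 986 and 927 CPM and Rps3a1 at 1765 and 1664 CPM, ratios of 0.940 (0.914 to 0.967) and 0.943 (0.923 to 0.963), the first of which was above 1 in cells thinned to 500 UMIs. Rps19, with the highest ratio in B cells, was at 2730 and 2783 CPM in monocytes, a ratio of 1.02, and at 1813 and 1948 CPM in NK cells, a ratio of 1.07. Rps19 thus led in B cells only, while Rpl21 was among the 5 highest ratios in both NK cells and monocytes. Rps25 and Rpl23a were among the 5 lowest ratios in B cells, NK cells and monocytes alike. Whether these ratios differ between classes beyond the libraries' spread could not be tested.

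Of the other genes named for their roles, Rpl5 had ratios of 1.02 in B cells, 0.986 in NK cells and 0.968 in monocytes. Its partner Rpl11 had ratios of 1.11, 1.13 and 1.07. Rps14 had 1.04, 1.08 and 1.05, Rps6 had 1.07, 1.07 and 1.00, and Rps24 had 1.09, 1.12 and 1.07, in the same order of classes. Rpl41 had 1.07, 1.11 and 1.07, Rps4x 1.098, 1.08 and 1.06, Rplp1 1.03, 1.1 and 1.04 and Rplp2 1.07, 1.06 and 1.04. All of these lay within the fold mark.

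The paralogs, copies of a ribosomal protein gene that can replace or accompany it, did not share a pattern. Rps27l, a p53 target and paralog of Rps27, stood at 231 CPM in monocytes with low B12 and 286 CPM in those with high B12. That is 1.24-fold higher (1.17 to 1.31), the highest ratio of the measured members at 100 CPM or more in this class. It stood at 105 and 128 CPM in B cells, 141 and 155 CPM in NK cells and 79.3 and 72.1 CPM in neutrophils. Monocytes thus had the highest level of Rps27l of the 4 compared classes in both libraries, beside 221 and 219 CPM in empty droplets.
Rpl22l1, which takes the place of Rpl22 when that gene is low, stood at 708 and 845 CPM in B cells, 659 and 803 CPM in NK cells, 504 and 529 CPM in monocytes and 214 and 171 CPM in neutrophils. Rpl36al, a close relative of Rpl36a, was highest in monocytes, at 997 and 1116 CPM, and lowest in neutrophils, at 209 and 143 CPM. Rpl7l1, which acts in early steps of large-subunit assembly, was at 47.3 and 50.2 CPM in B cells and 27.4 and 26.3 CPM in neutrophils.

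Rpl3l, a paralog of Rpl3 known from heart and skeletal muscle, was detected at low counts and not alike in the classes. It gave 109 and 397 UMIs in neutrophils, 19.2 and 24.4 CPM, a ratio of 1.27 (1.03 to 1.59). In monocytes it gave 215 and 76 UMIs, 17.7 and 8.85 CPM, a ratio of 0.4997 (0.380 to 0.652), or 2.001-fold lower. In B cells 55 and 14 UMIs gave 4.09 and 2.82 CPM, a ratio of 0.690 (0.355 to 1.26), whose direction turned without doublets (log2 ratio 1.35). Empty droplets had Rpl3l at 16.3 and 13.3 CPM, below neutrophils and monocytes with low B12 and between them with high B12, and the part of free RNA in these levels was not tested. Rpl39l and Rpl10l, known from the testis, gave 9 and 7 UMIs and 0 and 2 UMIs over all cells, too few for a comparison.

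Rps27rt is a retrogene copy of Rps27, and the start of its transcript shows how near the pair is. The lines below follow the same layout, with capitals for the pyrimidine run.
Rps27, chr3:90213629-90213673, minus strand: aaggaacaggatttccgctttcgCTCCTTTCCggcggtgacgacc
Rps27rt, chr9:114982720-114982764, minus strand: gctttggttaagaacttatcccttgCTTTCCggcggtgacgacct
With the starts set 1 base apart, 39 of the first 40 transcribed bases were identical, and Rps27 shared 100% and Rps27rt 79.4% of the windows at the transcript end with other genes. Rps27 stood at 8247 and 8833 CPM in B cells, and Rps27rt at 155 and 148 CPM. In monocytes the pair stood at 4148 and 4269 CPM and at 77.7 and 71.7 CPM. Reads of one may be counted as the other, so the level of Rps27rt is uncertain. Rps19bp1, which is no ribosomal protein, was at 27.7 and 33.3 CPM in B cells and 10.03 and 9.35 CPM in neutrophils.

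Over all cells the most abundant members were Rps29, Rps27, Rps24, Rpl37a and Rps28, at 6866, 5313, 5086, 4691 and 3976 CPM with low B12 and 5386, 3942, 3781, 3543 and 3158 CPM with high B12. UMI counts of transcript ends are not divided by gene length, and how well each transcript is captured also sets these levels. Small-subunit genes gave 44.9 to 47.3% of the ribosomal protein UMIs in the compared classes of the low-B12 library and 44.6 to 47.5% in those of the high-B12 library. The balance of the subunits was thus nearly the same in all of them.

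The composition of the pool, each gene's share of all ribosomal protein UMIs, takes the level of the whole family out and allows classes to be compared within a library. It was taken over 79 members at 100 CPM or more in both libraries of each compared class. Neutrophils had the pool most unlike the others. For 17 members their share was above that of B cells, NK cells and monocytes in both libraries, and for 29 it was below all of them. The other 33 did not hold 1 place.
Since the genes below were chosen as those that differ most, their values are a description.

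Rps9, an early-assembling protein of the small subunit, made up 3.61% of the pool in neutrophils of the low-B12 and 4.35% in those of the high-B12 library. It made up 1.16% and 1.06% in NK cells, 1.505% and 1.36% in B cells and 2.02% and 2.01% in monocytes. The neutrophil share was thus 3.10-fold and 4.09-fold that of NK cells, the widest range of the members in both libraries. The share of Rps9 in neutrophils moved with the choice of cells and was 6.04% and 6.34% after thinning to 500 UMIs. In CPM, neutrophils were still below B cells, 2024 and 1864 against 3390 and 3419 CPM.
Rps27a, which is made as a fusion with ubiquitin, made up 3.15% and 3.78% of the neutrophil pool, 2.30% and 2.25% of the monocyte pool, 1.56% and 1.53% of the NK cell pool and 1.503% of the B cell pool in both libraries. As with Rps9, both neutrophil values lay above all others. Rps25, Rpl37, Rpl23a and Rpl9 were next among the 17 members that weighed more in neutrophils.

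Rpl12 was at the other end, with 0.308% and 0.249% of the neutrophil pool, 0.371% of the monocyte pool in both libraries, 0.596% and 0.586% of the NK cell pool and 0.672% and 0.701% of the B cell pool. Rpl14, of the large subunit, made up 0.309% and 0.298% in neutrophils, 0.378% and 0.368% in monocytes, 0.483% and 0.464% in B cells and 0.511% and 0.491% in NK cells. For both genes the myeloid classes were low and the lymphoid classes high. Rplp1, Rpl10a and Rpl36a were next among the 29 members that weighed less in neutrophils.
Rpl10 and Rpl36al set monocytes apart. Rpl10, an X-linked gene whose protein joins late in large-subunit maturation, made up 1.41% and 1.39% of the monocyte pool, 1.12% and 1.13% of the NK cell pool, 0.936% and 0.956% of the neutrophil pool and 0.798% and 0.827% of the B cell pool. Rpl36al made up 0.543% and 0.572% in monocytes, 0.373% and 0.374% in NK cells, 0.372% and 0.333% in neutrophils and 0.307% and 0.319% in B cells. With cells thinned to 500 UMIs, Rpl36al made up 0.179% and 0.199% in neutrophils and 0.276% and 0.283% in B cells, so that neutrophils were then the lowest class. In both genes the monocyte values were the highest in each library, and Rpl10 shares all its end windows with copies.

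**Figure D4:**
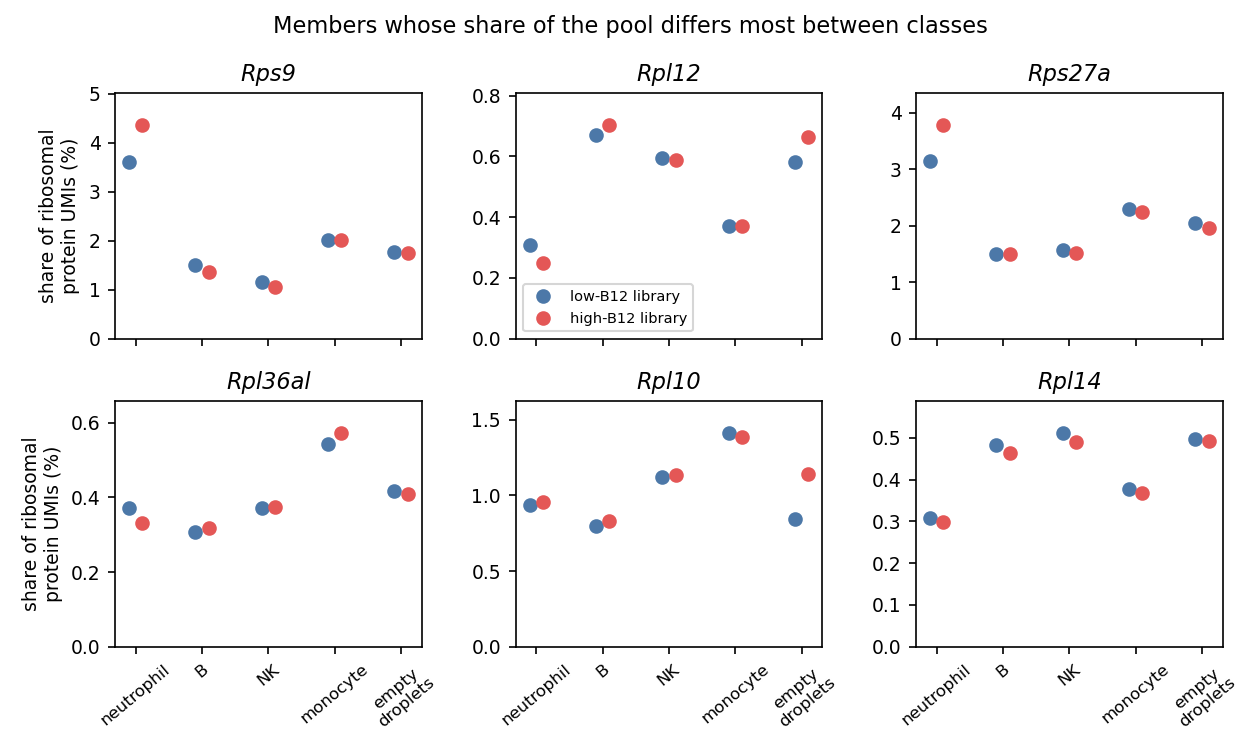
Share of all ribosomal protein UMIs (percent) taken by the 6 members that differ most between classes, in neutrophils, B cells, NK cells, monocytes and empty droplets, with 1 point per library. Rps9 and Rps27a are highest in neutrophils, Rpl12 and Rpl14 lowest there, and Rpl36al and Rpl10 highest in monocytes. For Rps9 (3.61% and 4.35%) and Rps27a (3.15% and 3.78%) the points of the libraries lie furthest apart in neutrophils.

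The pool of neutrophils was also unlike that of the free RNA. Empty droplets had Rps9 at 1.76% and 1.74% of the pool, Rps27a at 2.05% and 1.96%, Rpl12 at 0.583% and 0.664% and Rpl14 at 0.497% and 0.492%, between the classes or near lymphoid levels. The standard deviation (SD) over members of the log2 ratio of pool shares, neutrophils over empty droplets, was 0.35 with low B12 and 0.45 with high B12. For B cells it was 0.24 and 0.25, for NK cells 0.24 and 0.24, and for monocytes 0.27 and 0.26. With cells that held markers of other classes left out, Rps9 made up 5.07% and 4.92% of the neutrophil pool and Rpl12 0.192% and 0.185%, further from the other classes than with them.

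The class differences in the pool ran in nearly the same order over the members in both libraries, which have 4 barcodes in common. The log2 ratio of pool shares between 2 classes correlated across the 79 members with Pearson's r of 0.962 to 0.989 between the libraries, over the 6 pairs of classes. This is a correlation across genes, which are not independent replicates, and the classes were taken by the same rule in both libraries. Their size differed where neutrophils were compared: the SD of these ratios was 0.28 and 0.39 for monocytes, 0.38 and 0.51 for B cells and 0.38 and 0.49 for NK cells, each against neutrophils. Without cells holding markers of other classes these SDs were 0.494 and 0.496, 0.606 and 0.633, and 0.588 and 0.606, wider in both libraries and closer together. The SD was 0.18 and 0.20 for B against NK cells, the smallest. Within a class the SD between the libraries was 0.13 in neutrophils, 0.08 in B cells, 0.07 in NK cells and 0.05 in monocytes. Differences between classes were thus wider than those between libraries. For 57 of 79 members the same class had the highest share, and the same class the lowest, in both libraries.

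**Figure D5:**
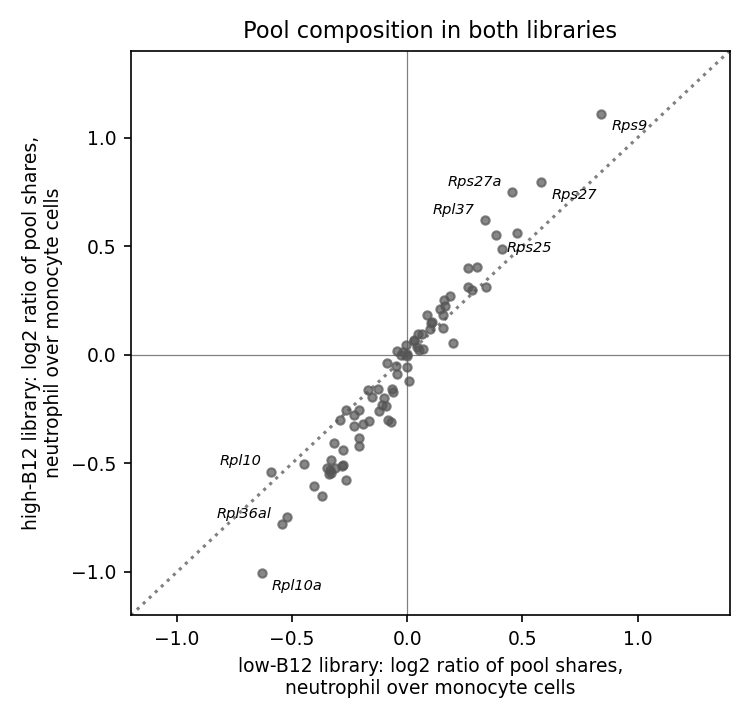
Log2 ratio of pool shares, neutrophils over monocytes, in the low-B12 library (horizontal) and the high-B12 library (vertical) for 79 members (points), with the line of equal values dotted. Members lie along a line steeper than the dotted one, from Rpl10a at the lower left to Rps9 at the upper right, with an SD of 0.28 in the low-B12 and 0.39 in the other library, and of 0.494 and 0.496 (not drawn) without cells holding markers of other classes.

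Other genes of the translation machinery were set beside the members. For the counts below, 35.8% of all measured genes were lower and 4.93% higher past the fold mark in neutrophils. These shares were 24.4% and 8.12% in B cells, 24.5% and 8.25% in NK cells, and 19.6% and 8.04% in monocytes. Fau, whose product yields a small-subunit protein, stood at 3540 and 3369 CPM in neutrophils, 7327 and 7451 CPM in B cells, 5268 and 5484 CPM in NK cells and 7033 and 7259 CPM in monocytes, within 1.05-fold in each.

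Of 24 genes for elongation factors and other 5′TOP mRNAs, 14 were lower and 0 higher past the fold mark in neutrophils. In B cells 0 were lower, in NK cells 1, Eif4b, and in monocytes 2, Eif4b and Eif4a2. Their median log2 ratios were −0.39 in neutrophils, 0.09 in B cells, 0.09 in NK cells and 0.04 in monocytes, of the members' sign in each class. The neutrophil values of this list and of the lists below are those of the whole class. They are not given without cells holding markers of other classes. Eef1a1, the elongation factor that brings aminoacyl-tRNA, stood at 753 and 504 CPM in neutrophils, 1.49-fold lower, and at 3131 and 3299 CPM in B cells, a ratio of 1.05. Tpt1, a 5′TOP gene of high abundance, was at 1641 and 1403 CPM in neutrophils and at 4653 and 5113 CPM in NK cells.

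Of the ribosome biogenesis genes, 16 of 20 measured were lower in neutrophils past the fold mark and 1 was higher, with a median of −0.62 (log2), among genes mostly under 20 CPM there. Ncl, the nucleolar protein nucleolin, was at 116 and 84.0 CPM in neutrophils and at 412 and 414 CPM in B cells, and Fbl, the rRNA methyltransferase fibrillarin, at 10.0 and 5.29 CPM and at 58.0 and 68.6 CPM. In B cells 3 of 30 were higher and 3 lower (median 0.07), in NK cells 2 and 3 of 28 (median 0.02), and in monocytes 0 and 6 of 30 (median −0.08). The biogenesis genes thus had no common direction in the classes where the ribosomal protein genes were higher.

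Initiation factors had medians of −0.26 in neutrophils, −0.01 in B cells, −0.02 in NK cells and 0.00 in monocytes, with 21 of 52, 3 of 53, 7 of 52 and 4 of 52 lower and 0, 5, 3 and 1 higher past the fold mark. Translation regulators had medians of −0.21, −0.03, −0.20 and −0.24, with 6 of 18, 0 of 19, 6 of 19 and 6 of 19 lower and 1, 4, 0 and 2 higher. Among them Myc, a driver of ribosome biogenesis, was at 11.5 and 17.7 CPM in B cells, 1.54-fold higher (1.17 to 2.01). Eif4ebp1, Eif2ak2 and Eif2ak3 were also higher there, with ratios of 1.31, 1.30 and 1.27. Pdcd4, an inhibitor of the helicase eIF4A, was at 199 and 127 CPM in monocytes, 1.57-fold lower. Myc (ratio 0.707, 0.370 to 1.30), Rptor (0.762), Eif4e (0.758), Tsc1 (0.663) and Tsc2 (0.797) were also lower in monocytes. Rps6kb2 (1.26) and Eif2ak2 (1.28) were higher in them. The genes of mitochondrial ribosomal proteins, which form a separate ribosome, had medians of −0.16, 0.14, 0.19 and 0.18, with 1 of 74, 6 of 78, 18 of 77 and 13 of 78 higher and 21, 2, 2 and 1 lower. In neutrophils the lower genes were 40.4% of initiation factors, 33.3% of translation regulators and 28.4% of mitochondrial ribosomal protein genes. These shares were near or below the 35.8% of all genes. In B cells, NK cells and monocytes both families of ribosomal protein genes thus had medians above that of all genes.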

How the data were processed

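The authors deposited unnormalized UMI counts for every gene and barcode. Per the file headers these came from Cell Ranger 4, whereas version 2.1.1 of Cell Ranger stands in the submitters' processing notes. No source used here gives the genome build or annotation. Gene positions came from GENCODE M21, where all 86 members were found by ID, and start sequences from RefSeq (GRCm38.p6). Both libraries hold empty droplets, and cells were chosen by the same limits in each.

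UMIs were summed per class and library and divided by the class total to give CPM. Classes with at least 50 cells in each library were compared, over genes with at least 50 UMIs in both libraries together. Log2 ratios had 0.5 UMI added to each sum. Shares carry exact binomial and ratios exact conditional binomial intervals, and differences of shares normal intervals. A gene counted as higher at 25% above and as lower at 20% below the low-B12 library, since 1 library per group allows no test. Scrublet in scanpy 1.11.5 called 475 and 329 doublets, kept except in an alternative. Python 3.11.15, numpy 2.4.6, scipy 1.17.1 and pandas 2.3.3 were used, and the ratio script was tested on simulated data.

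Named in each class were the 5 members with the largest ratio each way among those at 100 CPM or more, a set of members fixed by role, the paralogs, the 5 highest and lowest over all cells, and the 6 whose pool share differed most between classes. Of other lists, up to 4 genes of high CPM and genes past the fold are named. Fau was added after seeing its values, and 1 result is not reported here. Members and lists were chosen with earlier results of these data known. Other choices of cells, weighting, scaling, fold and gene minimum were tried. Protein sequences were not used here.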

Additional observations from a re-analysis of the deposited data

Results flagged for a closer look

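The difference in ribosomal protein share between the libraries, high-B12 minus low-B12, had opposite directions in neutrophils and in the other compared classes. The B cell difference was above the neutrophil difference by 3.93 percentage points, the NK cell difference by 3.32 points and the monocyte difference by 2.47 points. These contrasts rest on 1 library per condition and were not tested. Without cells that held markers of another class the neutrophil difference in summed UMIs was −0.121 points, beside 2.52, 2.18 and 1.11 points in B cells, NK cells and monocytes. The medians over single neutrophils in that set were 3.156% with low B12 and 3.158% with high B12. In the whole class, neutrophils under 2000 UMIs stood at 3.42% with low B12 and 3.71% with high B12. Those of 2000 to 5000 UMIs stood at 3.38% and 3.42%.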

How the results depend on the processing

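No paired analysis was possible because each condition has 1 library. In neutrophils the share difference of −1.32 points was −0.489 points without called doublets, −0.342 with every cell weighted the same, −0.374 with cells thinned to 500 UMIs and −0.121 without cells holding markers of another class. The 67 lower members were then 18, 13, 19 and 0, beside 27.9%, 27.9%, 26.4% and 24.7% of all genes. When cells were weighted the same or lacked other markers 2 members were higher, beside 9.35% and 7.50% of all genes. With scaling by the median ratio 23 were lower, beside 18.8% of all genes. At 1.5-fold 9 were lower and 0 higher, beside 15.7% and 1.64% of all genes. With scaling that leaves out ribosomal protein and mitochondrial UMIs 0 were higher, beside 4.43%. For the counts that follow, the share of all genes past the same mark stands in brackets. For B cells, whose difference was 2.61 points, the same 4 choices gave 2.72, 2.15, 2.24 and 2.52 points, at most 5% mitochondrial UMIs gave 3.29 and doubled marker minimums 2.66. Members past the fold mark upwards in B cells were 2 at 5% mitochondrial UMIs (7.37%) and with equal weights (9.94%), and 3 after thinning (14.3%). There were 6 with the scaling that leaves out those genes (10.1%) and 23 with median-ratio scaling (14.0%). At 1.5-fold 0 were higher (3.02%) and at 1.1-fold 52 (20.3%). Lower ones were 0 without doublets, with equal weights, after thinning, without other markers, at 1.5-fold and with at least 200 UMIs per gene. For NK cells (2.004 points) the 4 choices gave 2.23, 1.38, 1.35 and 2.18 points, and 5% mitochondrial UMIs 2.19. Higher NK cell members were 2 after thinning (11.9%) and with those genes left out of scaling (10.3%), and 7 with the median ratio (15.0%). At 1.5-fold they were 0 (2.13%) and at 1.1-fold 50 (22.4%). For monocytes (1.16 points) 5% mitochondrial UMIs gave 1.33, equal weights 0.845, thinning 0.972, doubled minimums 1.001 and the absence of other markers 1.11 points. Higher monocyte members were 1 at 5% mitochondrial UMIs (7.69%), after thinning (12.4%), with doubled minimums (8.73%) and without other markers (8.72%). They were also 1 with both other scalings (9.19% and 12.3%), and 14 at 1.1-fold (21.7%). Of 1071 values of named members under alternatives 727 stayed within the counting interval. The sign changed in 84 of them, in 13 members in neutrophils, 11 in B cells, 6 in NK cells and 10 in monocytes. Of these 84 values, 77 were of members that had not passed the fold mark and 7 of members that had. The 7 were, in neutrophils, Rpl14 (log2 ratio 0.13 after thinning, 0.038 without other markers), Rpl36al (0.0023 after thinning), Rpl10 (0.077) and Rplp0 (0.084) without other markers, and in B cells Rpl3l (1.35 without doublets, 0.72 after thinning). For the 6 genes whose pool shares differed most, the log2 ratio of pool shares between the classes of highest and lowest share kept its sign in 84 of 84 values under alternatives, and 49 lay outside the counting interval. Between the libraries the neutrophil pool share of Rps9 did turn, from 3.61% and 4.35% to 5.07% and 4.92% without other markers. Where a value changed, the cause was not tested. The counting error of class sums is small, and the spread between mice or libraries is unknown.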

Other observations

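Cells that matched no class spread over low, middle and high ribosomal protein shares. In the low-B12 library 301 cells lay under 5% (115 under 3% and 186 from 3 to 5%), and in the high-B12 library 686 did (352 and 334). From 5 to 10% there were 172 and 298 cells, and above that 861 and 609. The neutrophil receptor gene Csf3r stood at 2264 and 3059 CPM in the 2 ranges under 5% of the low-B12 library and at 3011 and 3299 CPM in those of the high-B12 library, against 1392 and 1961 CPM from 5 to 10% and 59.9 and 75.5 CPM above 10%. In the 2 ranges under 5%, S100a8 and S100a9 together stood at 10946 and 21303 CPM and at 15352 and 22500 CPM, below the 5% of UMIs that the rule for neutrophils asks. Camp, Ngp and Ltf, genes of secondary granules, summed to 67.2 and 53.7 CPM there with low B12 and to 1750 and 229 CPM with high B12, against 44141 CPM and 42932 CPM in rule-defined neutrophils under 3%. Cd74 stood at 1178 and 2049 CPM there with low B12 and at 907 and 1377 CPM with high B12. In rule-defined neutrophils under 5% it was at 48.6 to 61.1 CPM. Retnlg, another neutrophil marker, was at 713 and 1099 CPM under 3%, low-B12 library first, against 10176 and 14456 CPM in rule-defined neutrophils under 3%. Cells with a low ribosomal protein share were thus found outside the neutrophil class too, with Csf3r high, granule genes low and Cd74 above the level of neutrophils. Which cells these are was not tested.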
